A study of Homo sapiens with 12 samples.

Results

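Genes of the lysosome and of autophagy were followed in RNA sequencing libraries of A549, an established line from a human lung adenocarcinoma. The set holds 43 genes chosen by name, among the 61541 rows of the count table: 20 lysosomal hydrolases and their cofactor, 7 proteins of the lysosomal membrane and of sterol export, 5 parts of the proton pump, 3 transcription factors of the TFEB family and 8 autophagy genes. All 43 were found by symbol, and all 43 passed the filter on low counts.

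The 12 libraries form 4 groups of 3, with RNA taken 14 days after transduction and no drug given to any group. The lone control received a non-targeting Cas9 guide (gNTC1 in the labels) and was grown by itself, and the co-cultured control carried the same guide and was grown in co-culture. The lone knockout received Cas9 directed at TYMS, the gene of thymidylate synthase (TS-KO in the labels), and the co-cultured knockout is the same genotype grown with parental A549 cells, which per the series text restored its growth. The labels do not state the partner of the control cells, whether partners were separated before RNA was taken, whether replicates came from separate cultures, or whether the knockout is a clone or a pool, so p-values measure the spread between these libraries only.

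Lysosomes are acidic compartments in which hydrolases take apart protein, lipid, glycan and nucleic acid, and the membrane proteins protect the organelle, export products and hold the pump that acidifies it. Autophagy delivers cytoplasm to lysosomes inside double membranes marked by LC3 and GABARAP proteins, with SQSTM1 as a cargo receptor that is itself degraded there. TFEB, TFE3 and MITF bind the sequence TCACGTGA near the start of many lysosomal genes, and non-dividing senescent cells are known for a large lysosomal compartment, of which beta-galactosidase activity from GLB1 is the usual stain.

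That sequence was searched for on both strands in RefSeq promoter windows of GRCh38.p14, which run from 250 bases before to 50 bases after a gene's start. A window was given for 32 of the 43 genes. TCACGTGA was in 6 of these 32 windows (18.8%) and in 283 of all 27305 windows in the table (1.04%). The shorter CACGTG, which TCACGTGA contains, was in 9 of the 32 (28.1%) and in 7.43% of all. The 6 genes with TCACGTGA were GAA, CTSA, LAMP1, MCOLN1, CLN3 and ATP6V0D1. No TFEB family gene and no autophagy gene of the set held CACGTG in this window. The 5 stretches below are shown because these genes with the motif are read against TFEB family levels further on, and capitals mark TCACGTGA.
LAMP1: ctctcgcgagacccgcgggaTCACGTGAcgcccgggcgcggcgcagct
MCOLN1: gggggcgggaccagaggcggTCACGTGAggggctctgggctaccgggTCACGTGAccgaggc
GAA: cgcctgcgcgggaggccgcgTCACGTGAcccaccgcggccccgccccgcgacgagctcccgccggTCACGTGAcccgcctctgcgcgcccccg
ATP6V0D1: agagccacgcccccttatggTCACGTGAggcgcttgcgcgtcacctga
CTSA: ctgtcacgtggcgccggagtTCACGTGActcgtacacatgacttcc
The LAMP1 stretch is chr13:113297190-113297237 on the plus strand and lies 49 to 2 bases before the start. The MCOLN1 stretch is chr19:7522562-7522623 on the plus strand and the GAA stretch is chr17:80101484-80101576 on the plus strand, each with 2 copies of the motif. The ATP6V0D1 stretch is chr16:67481190-67481237 on the minus strand, and the CTSA stretch is chr20:45891289-45891334 on the plus strand. A match is a description of the letters and not evidence of binding.

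The count totals ran from 14921371 to 35723762 per library, so a gene at 1 CPM (CPM being the count scaled by library size) has 14.9 counts in the shallowest library, and the lowest count of any member was 15, in CLN3. Replicate deviations followed transcript GC content, with rank correlations across genes between -0.757 (co-cultured knockout, replicate 3) and 0.736 (the same group, replicate 2), and replicate 3 stood apart from both others of its group. TYMS itself stood at 90.3 to 101 CPM in the 6 control libraries, at 20.3 to 21.4 CPM in the lone knockout and at 10.7 to 11.4 CPM in the co-cultured knockout. A549 is known to lack the chromosome 9 genes CDKN2A, CDKN2B and MTAP, yet the 6 libraries labelled control held CDKN2A at 54.7 to 116 CPM and MTAP at 43.8 to 79.5 CPM, against 0 to 0.119 and 0.302 to 0.647 CPM in the 6 libraries labelled knockout. EPCAM, an epithelial surface protein, stood at 94.4 to 119 CPM in the lone control and at 0.149 to 0.913 CPM in the knockout libraries. Of the 5 epithelial markers examined, EPCAM, KRT8 and KRT19 were lower in the lone knockout, KRT7 was higher and KRT18 was not called, and their summed level was 10826 to 17733 CPM in the lone control and 9876 to 13689 CPM in the lone knockout. The control libraries therefore go against the A549 label at this locus, and in every comparison of knockout with control the effect of the guide and whatever else separates these cells cannot be told apart. Co-cultured against lone knockout does not cross this difference. Markers of lymphocytes were below 1 CPM in every library for 4 of 4 genes, of macrophages for 4 of 5 (all but CD14), of fibroblasts for 4 of 5 (all but COL1A1) and of endothelium for 3 of 4 (all but VWF).

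Knockout cells grown alone carried more RNA of these genes than control cells grown alone, with a mixed pattern inside the organelle: the cathepsin CTSL, the sterol exporters NPC1 and NPC2, LAMP2, TFE3, MITF and 6 autophagy genes rose, while LAMP1, the calcium channel MCOLN1, TFEB, GAA and GUSB fell. The 43 genes together took 0.669% ± 0.0215 of all counts (SD, n = 3) in the lone control and 1.03% ± 0.00681 in the lone knockout. In bulk RNA a change in the mix of cells and a change in RNA per cell cannot be told apart. In the test of knockout against control alone, 24 of the 43 were called higher and 5 lower by edgeR at an adjusted p under 0.05 (29 of 43, 67.4%). Over all 16768 genes tested, 56.6% were called, 28% higher and 28.6% lower. The lone groups did not overlap for 25 members with the knockout higher and 6 with it lower, against 33.8% and 31.5% of all genes. The median log2 fold change (0 means equal, 1 a doubling) was 0.58 over the 43 and 0.09 over all genes. The members' log2 fold changes in this comparison ran against transcript GC content, with a Spearman correlation of -0.439 over 43 genes and of -0.386 over all genes. Changes were thus common among all genes in this comparison, and the members' calls were mostly upward.

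**Figure D1:**
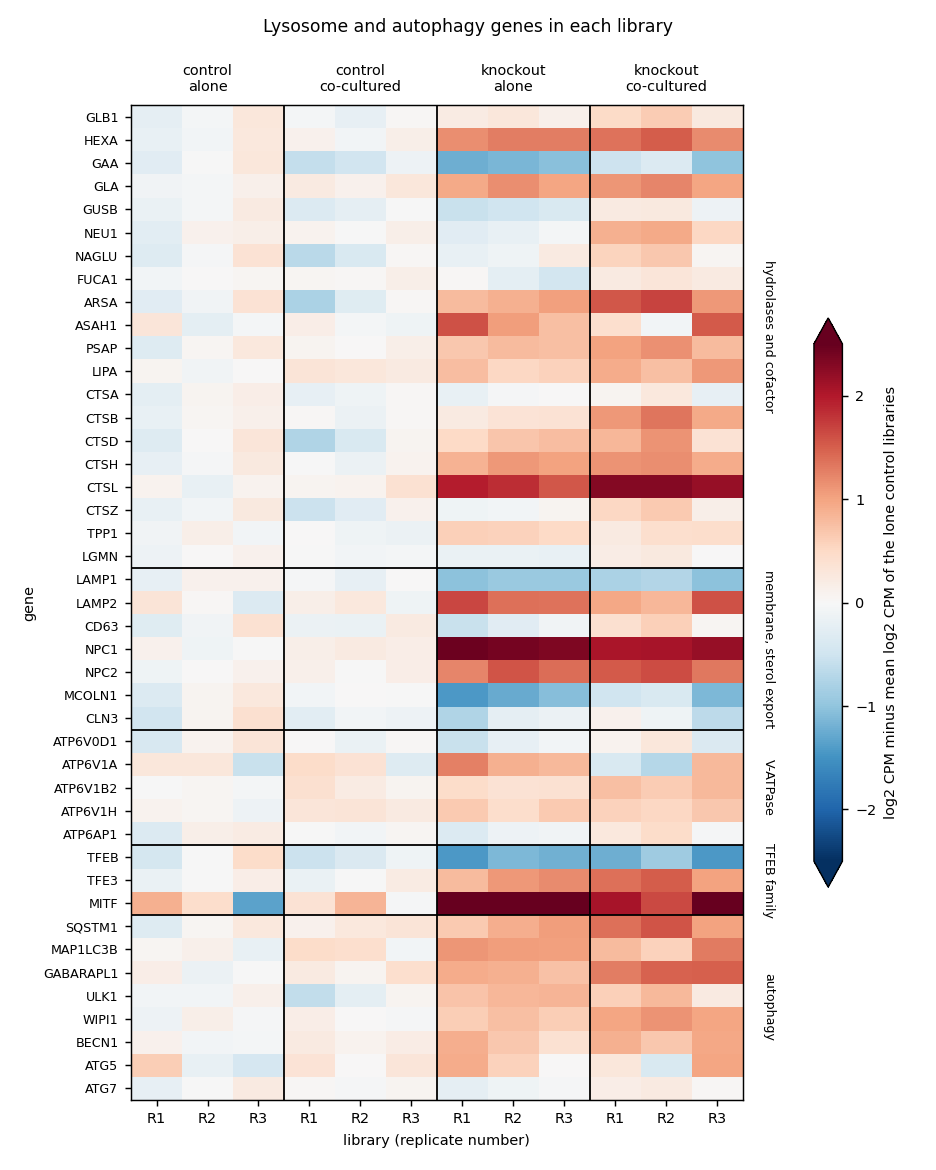
Each row is 1 of the 43 genes, grouped by role, and each column 1 of the 12 libraries; colour gives log2 CPM minus the mean of the 3 lone control libraries. NPC1, CTSL and MITF are higher in the knockout columns and LAMP1, MCOLN1 and TFEB lower, while replicate 3 of the co-cultured knockout differs from its neighbours in many rows.

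Among the 20 hydrolases, 10 were called higher and 2 lower alone, where 28% and 28.6% of all genes were. In co-culture 14 were higher and 0 lower, against 24.1% and 25.3% of all genes. The median log2 fold change alone was 0.43. CTSL encodes cathepsin L, a cysteine protease, and lies at chr9:87725519-87731393 (plus strand, GRCh38, ENSG00000135047). It stood at 88.3, 73.2 and 88.6 CPM in replicates 1 to 3 of the lone control and at 323, 297 and 244 CPM in the lone knockout. It stood at 86.7, 88.6 and 109 CPM in the co-cultured control and at 405, 409 and 376 CPM in the co-cultured knockout. Every knockout library was above every control library, and the groups did not overlap. Knockout exceeded control by 1.79 on the log2 scale (SE 0.15, edgeR adjusted p = 6.75e-07) alone and 2.07 (SE 0.15, adjusted p = 2.12e-07) in co-culture.

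HEXA encodes the alpha subunit of beta-hexosaminidase, which clears gangliosides. It stood at 38.4, 41.4 and 52 CPM in the lone control and at 96.9, 106 and 106 CPM in the lone knockout. The co-cultured control held 47, 41.6 and 48.1 CPM and the co-cultured knockout 111, 125 and 98.4 CPM. Knockout libraries were above all control libraries whether alone or co-cultured. That is 1.23 on the log2 scale (SE 0.14, edgeR adjusted p = 1.32e-05) alone and 1.29 (SE 0.14, adjusted p = 9.21e-06) in co-culture. Exons of HEXA share 16.3% of their bases with other annotated genes, and the strand setting of the counting is not given in the sources used here, so some of its counts may belong to those genes.

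PSAP, the precursor of the saposins that help lipid hydrolases, had the highest level per length of any member in all 4 groups. Its RPKM (CPM per kilobase of exon) was 499 ± 99.0 (SD, n = 3) in the lone control, 516 ± 25.3 in the co-cultured control, 821 ± 34.7 in the lone knockout and 974 ± 118 in the co-cultured knockout. Knockout against control came to 0.72 on the log2 scale (SE 0.17, edgeR adjusted p = 0.00254) alone and 0.92 (SE 0.17, adjusted p = 0.000524) in co-culture. The other hydrolases that rose alone were GLA (alpha-galactosidase, 1.03), CTSH (cathepsin H, 0.97), ARSA (arylsulfatase A, 0.88), LIPA (acid lipase, 0.62) and TPP1 (tripeptidyl peptidase, 0.55), with ASAH1 (acid ceramidase, 1.16) and CTSD (cathepsin D, 0.64). Of these the ASAH1 call was lost without replicate 2 of the lone control or replicate 1 of the lone knockout (1.03 and 0.88). The CTSD call was kept in 8 of 14 alternatives and lost without replicate 1 or 2 of the lone control or replicate 2 or 3 of the lone knockout (0.49 to 0.63), with RLE size factors and with DESeq2 (both 0.58). CTSD shares 52.7% of its exon bases with other annotated genes. LIPA fell short of the call with offsets for GC content, at 0.10 (adjusted p = 0.548).

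GLB1 encodes lysosomal beta-galactosidase, the enzyme behind the senescence stain, and lies at chr3:32996608-33097230 (minus strand, ENSG00000170266). Its level was 92.2, 105 and 132 CPM in the lone control and 125, 132 and 118 CPM in the lone knockout. It was 105, 94.6 and 111 CPM in the co-cultured control and 152, 168 and 128 CPM in the co-cultured knockout. The lone groups overlapped, and the co-cultured groups did not. Knockout minus control was 0.19 on the log2 scale (SE 0.15, edgeR adjusted p = 0.298) alone and 0.53 (SE 0.15, adjusted p = 0.0114) in co-culture. The co-cultured difference was 0.47 (adjusted p = 0.0555) without replicate 2 of the co-cultured control and 0.40 (adjusted p = 0.0567) without replicate 2 of the co-cultured knockout. Whether the difference differed between lone and co-cultured cells was tested by the interaction, which was 0.34 (SE 0.22, adjusted p = 0.389). Exons of GLB1 share 10.0% of their bases with other genes, TMPPE on the same strand among them. The RNA level says nothing of the enzyme's activity, which was not measured here.

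Other genes that change in cells that stop dividing stood beside GLB1 as follows. CDKN1A, the cell cycle inhibitor p21, rose alone by a log2 fold change of 2.40 (edgeR adjusted p = 8.66e-07), from 177 to 259 CPM in the lone control to 957 to 1282 CPM in the lone knockout. LMNB1, a nuclear lamina gene, fell alone by 0.80 on the log2 scale (adjusted p = 0.000961). MKI67, a proliferation marker, stood at 102 to 162 CPM in the lone control and 141 to 162 CPM in the lone knockout, at a log2 fold change of 0.16 (adjusted p = 0.55). The part of growth state in the lysosomal values was not tested.

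GAA, the acid alpha-glucosidase that degrades glycogen, fell alone. It stood at 272, 329 and 403 CPM in the lone control and at 141, 149 and 160.4 CPM in the lone knockout, with no overlap. In co-culture it stood at 218, 238 and 303 CPM in the control and at 229, 262 and 165 CPM in the knockout, with overlap. The difference on the log2 scale was -1.16 (SE 0.20, edgeR adjusted p = 0.000309) alone and -0.21 (SE 0.20, adjusted p = 0.40) in co-culture, and the interaction was 0.95 (SE 0.28, adjusted p = 0.116). With GC offsets the difference of GAA was -0.20 (adjusted p = 0.0419) alone and 0.23 (adjusted p = 0.0244) in co-culture. GUSB, beta-glucuronidase, fell alone by 0.49 on the log2 scale (SE 0.15, adjusted p = 0.0142). The GUSB call was lost without replicate 3 of the lone control, at -0.40 (adjusted p = 0.0512), and without replicate 1 of the lone knockout, at -0.45 (adjusted p = 0.0535). FUCA1, CTSA and LGMN, the hydrolases for fucose, terminal carboxyl residues and asparagine bonds, were called in neither knockout comparison, with log2 fold changes between -0.21 and -0.07 alone. With GC offsets CTSA was called higher alone, at 0.65 (adjusted p = 3.94e-06), and in co-culture, at 0.46 (adjusted p = 0.000122).

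The membrane group held NPC1, which had the smallest p of any member in the lone comparison, and also genes that fell. Of 7 genes, 3 were called higher and 2 lower alone, and 3 higher and 2 lower in co-culture. These counts lie near the shares of all genes, which were 28% higher and 28.6% lower alone and 24.1% and 25.3% in co-culture. NPC1, which lifts cholesterol out of the lysosomal membrane, stood at 46.2, 39.6 and 42.5 CPM in the lone control and at 232, 224 and 214 CPM in the lone knockout. It stood at 47, 49.7 and 47.9 CPM in the co-cultured control and at 175, 178 and 192 CPM in the co-cultured knockout. All knockout libraries lay far above all control libraries. The log2 fold change was 2.39 (SE 0.12, edgeR adjusted p = 5.94e-09) alone and 1.91 (SE 0.12, adjusted p = 3.8e-08) in co-culture.

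NPC2 hands cholesterol to NPC1 in the lumen. It stood at 97, 106 and 113 CPM in the lone control and at 244, 313 and 276 CPM in the lone knockout. The co-cultured control held 115, 104 and 118 CPM and the co-cultured knockout 303, 326 and 263 CPM. The groups did not overlap, and the log2 fold change was 1.40 (SE 0.14) in both settings, with edgeR adjusted p = 3.14e-06 alone and 3.42e-06 in co-culture.

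LAMP1 and LAMP2 encode the heavily glycosylated proteins that line the lysosomal membrane, and they moved in opposite directions. LAMP1, whose promoter stretch is printed above, stood at 317, 392 and 394 CPM in the lone control and at 180.5, 193 and 193 CPM in the lone knockout. It stood at 359, 319 and 366 CPM in the co-cultured control and at 213, 221 and 180.4 CPM in the co-cultured knockout. Every knockout library was below every control library. Its log2 fold change was -0.96 (SE 0.14, edgeR adjusted p = 6.62e-05) alone and -0.77 (SE 0.14, adjusted p = 0.000446) in co-culture.

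LAMP2 stood at 36.6, 29.9 and 23.4 CPM in the lone control and at 94.3, 76.6 and 75.9 CPM in the lone knockout. It stood at 32.5, 35.4 and 27.2 CPM in the co-cultured control and at 57.6, 52.5 and 89 CPM in the co-cultured knockout. Knockout libraries were above control libraries in both settings, and replicate 3 of the co-cultured knockout lay nearer to the lone knockout than its group did. On the log2 scale the difference was 1.46 (SE 0.22, edgeR adjusted p = 0.000109) alone and 1.07 (SE 0.22, adjusted p = 0.00121) in co-culture. Per length, the level of LAMP1 was 12.4 ± 3.96 times that of LAMP2 (ratio of RPKM, SD, n = 3) in the lone control and 10.8 ± 2.12 times in the co-cultured control. The ratio was 2.24 ± 0.343 in the lone knockout and 3.19 ± 1.10 in the co-cultured knockout. LAMP1 and LAMP2 were chosen for full values after their values were seen.

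MCOLN1 encodes the calcium channel TRPML1 and holds 2 copies of the motif in the stretch printed above. It stood at 25, 33.3 and 38.1 CPM in the lone control and at 11.6, 13.3 and 15.2 CPM in the lone knockout. The co-cultured control held 30.1, 31.6 and 31.2 CPM and the co-cultured knockout 22.3, 24.2 and 14.4 CPM. Knockout libraries were below control libraries in both settings. On the log2 scale the difference was -1.27 (SE 0.21, edgeR adjusted p = 0.000252) alone and -0.61 (SE 0.21, adjusted p = 0.0264) in co-culture. The call in co-culture was kept in 5 of 14 alternatives. It was lost without replicate 1 or 2 of the co-cultured control (-0.63 and -0.60), without replicate 3 of the co-cultured knockout (-0.41, adjusted p = 0.0777) and in 6 fits of all its libraries, at -0.27 with GC offsets.

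CD63, a tetraspanin of late endosomes, stood at 680.4, 789 and 1098 CPM in the lone control and at 569, 686 and 792 CPM in the lone knockout. It stood at 760.2, 746 and 973 CPM in the co-cultured control and at 1099, 1274 and 870.5 CPM in the co-cultured knockout. Knockout and control overlapped in both settings, and CD63 was called in neither. CLN3, a membrane protein lost in juvenile Batten disease, was the lowest member, at 0.762 to 1.69 CPM over all libraries, and was called in neither.

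**Figure D2:**
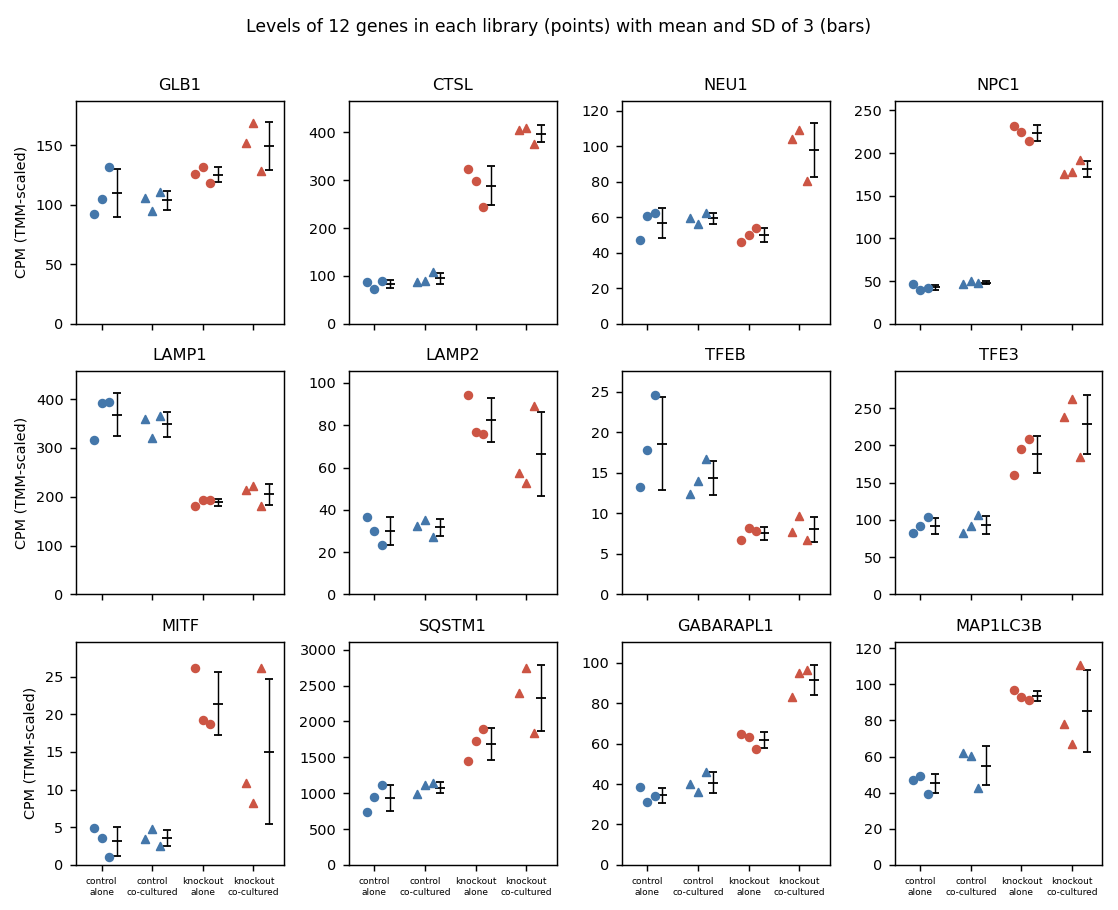
Each panel plots 1 gene in CPM for the 12 libraries, with a point per library, the group mean as a line and its SD as a bar, on axes that start at 0. CTSL, NPC1 and SQSTM1 stand higher in both knockout groups and LAMP1 and TFEB lower, while the GLB1 points of the lone groups overlap.

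The proton pump (V-ATPase) acidifies the lumen, and 3 of its 5 members were called higher and 0 lower alone, and 2 higher and 0 lower in co-culture. Of all genes 28% were called higher and 28.6% lower alone, and 24.1% higher and 25.3% lower in co-culture. The pump counts are of 5 genes only. ATP6V1H, the regulatory H subunit, stood at 32.2, 31.2 and 27.7 CPM in the lone control and at 47.9, 40.8 and 47.8 CPM in the lone knockout. It stood at 37.4, 37.6 and 35.3 CPM in the co-cultured control and at 45, 43.6 and 48.5 CPM in the co-cultured knockout. The groups did not overlap in either setting. The H subunit differed by 0.58 on the log2 scale (SE 0.12, edgeR adjusted p = 0.00142) alone and 0.31 (SE 0.12, adjusted p = 0.0485) in co-culture. The second call was kept in 2 of 14 alternatives. Leaving out any 1 of the 6 co-cultured libraries ended it, with values from 0.25 to 0.33.

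ATP6V1B2, a nucleotide-binding B subunit, stood at 75.5, 79.5 and 74.2 CPM in the lone control and at 105, 98.7 and 99.5 CPM in the lone knockout. It stood at 101, 87.6 and 80.1 CPM in the co-cultured control and at 128, 118 and 134 CPM in the co-cultured knockout. Knockout libraries were above control libraries in each setting, by log2 fold changes of 0.40 (SE 0.12, edgeR adjusted p = 0.0121) alone and 0.50 (SE 0.12, adjusted p = 0.0036) in co-culture. With GC offsets the lone difference had the other sign, at -0.20 (adjusted p = 0.42), and without replicate 3 of the lone control it was 0.35 (adjusted p = 0.0508). Without the filter on low counts the lone difference was 0.39 (edgeR adjusted p = 0.141). ATP6V1A, the catalytic A subunit, was called alone at 0.95 (SE 0.36, adjusted p = 0.0399), and 9 of 14 alternatives ended that call, among them the absence of replicate 2 or 3 of the lone control or of any lone knockout library. ATP6V0D1 and the accessory subunit ATP6AP1 were called in neither setting, with log2 fold changes of -0.29 and -0.20 alone.

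The 3 TFEB family genes did not move together. TFEB is the factor best known for driving lysosomal genes. It stood at 13.2, 17.9 and 24.6 CPM in the lone control and at 6.65, 8.22 and 7.79 CPM in the lone knockout. It stood at 12.4, 14 and 16.6 CPM in the co-cultured control and at 7.67, 9.72 and 6.64 CPM in the co-cultured knockout. Every knockout library was below every control library, and the log2 fold change was -1.30 (SE 0.24, edgeR adjusted p = 0.000603) alone and -0.84 (SE 0.24, adjusted p = 0.0108) in co-culture.

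TFE3, its paralog, stood at 81.9, 91.5 and 103 CPM in the lone control and at 159.9, 195 and 209 CPM in the lone knockout. It stood at 82.3, 91.5 and 106 CPM in the co-cultured control and at 238, 263 and 185 CPM in the co-cultured knockout. Every knockout library was above every control library. The log2 fold change was 1.03 (SE 0.17, edgeR adjusted p = 0.000225) alone and 1.29 (SE 0.17, adjusted p = 3.95e-05) in co-culture. MITF, the member known from pigment cells, was low, at 4.83, 3.57 and 1.04 CPM in the lone control and at 3.38, 4.75 and 2.57 CPM in the co-cultured control. Its level was 26.2, 19.3 and 18.7 CPM in the lone knockout and at 10.9, 8.2 and 26.1 CPM in the co-cultured knockout. Its groups did not overlap, and replicate 3 of the co-cultured knockout stood at the level of the lone knockout. Its log2 fold change was 2.77 (SE 0.52, edgeR adjusted p = 0.000589) alone and 2.07 (SE 0.50, adjusted p = 0.00394) in co-culture, and in co-culture 1.41 without that replicate.

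Per length, TFE3 was the most abundant of the 3 in every group, at 21.5 ± 2.50 RPKM (SD, n = 3) in the lone control and 43.9 ± 5.90 RPKM in the lone knockout. TFEB stood at 3.28 ± 1.01 and 1.34 ± 0.144 RPKM in those groups, and MITF at 0.438 ± 0.269 and 2.98 ± 0.580 RPKM. TFEB was thus above MITF in the lone control and below it in the lone knockout. These are RNA levels, and the place of the proteins in the cell, by which the family is mainly controlled, was not measured.

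Of the 6 members with TCACGTGA in the promoter window, LAMP1, MCOLN1 and GAA were called lower in the lone knockout, and CTSA, CLN3 and ATP6V0D1 were not called. None of the 6 was called higher in this fit without GC offsets. In co-culture LAMP1 and MCOLN1 were called lower and the other 4 were not called. With GC offsets CTSA was called higher in both comparisons and GAA higher in co-culture. The co-cultured call of MCOLN1 was lost in that fit, at -0.27 (edgeR adjusted p = 0.0614). CLN3 and ATP6V0D1 changed sign alone without a call. Of the genes tested, 220 had TCACGTGA in a promoter window and 11629 had a window without it. Tested genes with no window are left out. Alone, the 220 had a median log2 fold change of 0.11, with 27.3% called higher and 24.5% lower. The 11629 had a median of 0.08, with 28.3% called higher and 29.1% lower. In co-culture 19.5% of the 220 were called higher and 21.8% lower, against 23.6% and 25.5% of the 11629. With GC offsets 33.2% of the 220 were called higher and 29.5% lower alone, against 32.0% and 31.6% of the 11629. In co-culture these shares with GC offsets were 30.9% and 34.5%, against 30.8% and 32.3%.

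In the autophagy group, 6 of 8 genes were called higher and 0 lower, both alone and in co-culture. Of all genes 28% were called higher and 28.6% lower alone, and 24.1% and 25.3% in co-culture. The median log2 fold change of the 8 was 0.73 alone. SQSTM1 encodes p62, the cargo receptor. It stood at 739, 945 and 1108 CPM in the lone control and at 1448, 1730.0 and 1894 CPM in the lone knockout. It stood at 985, 1107 and 1144 CPM in the co-cultured control and at 2396, 2743 and 1840.3 CPM in the co-cultured knockout. Knockout libraries were above control libraries throughout. SQSTM1 differed by 0.86 on the log2 scale (SE 0.19, edgeR adjusted p = 0.00205) alone and 1.11 (SE 0.19, adjusted p = 0.000384) in co-culture. SQSTM1 shares 22.0% of its exon bases with neighbours on the opposite strand, MGAT4B and MRNIP.

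SQSTM1 is also a known target of the oxidative stress factor NRF2, and other NRF2 targets moved with it. Of a list of 14 such genes, 14 were called higher alone and 12 higher in co-culture, against 28% and 24.1% of all genes. Their summed level was 4178 to 4981 CPM in the lone control and 10579 to 11769 CPM in the lone knockout. HMOX1, heme oxygenase, had a log2 fold change of 3.02 alone (SE 0.19, edgeR adjusted p = 5.65e-08), and AKR1C3, an aldo-keto reductase, 2.38 (SE 0.13, adjusted p = 1.73e-08). On co-culture of the knockout 1 of the 14 was called higher and 2 lower, against 5.97% and 5.4% of all genes. AKR1C1 rose by 0.93 (SE 0.16, adjusted p = 0.00352) and HMOX1 fell by 0.82 on the log2 scale (SE 0.18, adjusted p = 0.0134). The latter call was lost without replicate 2 of the lone or replicate 1 of the co-cultured knockout, and with only the compared groups. AKR1C1 and AKR1C3 are close relatives, so their counts may be shared. A549 is known to have high NRF2 target RNA through a mutated KEAP1 gene. The control libraries went against the A549 label at the deleted locus described above. The guide and whatever else separates these cells thus cannot be told apart for the NRF2 targets either. The part of NRF2 in the SQSTM1 values was not tested.

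GABARAPL1, a ubiquitin-like protein of autophagosome membranes, stood at 38.4, 30.9 and 34 CPM in the lone control and at 64.9, 63.4 and 57.3 CPM in the lone knockout. It stood at 40.3, 35.9 and 46.2 CPM in the co-cultured control and at 83, 95.1 and 96.5 CPM in the co-cultured knockout. The 4 groups were ordered with the co-cultured knockout highest, and neither knockout group overlapped a control group. The log2 fold change was 0.84 (SE 0.14, edgeR adjusted p = 0.000198) alone and 1.17 (SE 0.14, adjusted p = 1.41e-05) in co-culture. MAP1LC3B, the LC3 gene, stood at 46.8, 49.5 and 39.3 CPM in the lone control and at 96.8, 93 and 91.5 CPM in the lone knockout. It stood at 61.8, 60.5 and 42.6 CPM in the co-cultured control and at 77.9, 67.1 and 111 CPM in the co-cultured knockout. Its groups did not overlap within either setting. Its log2 fold change was 1.05 (SE 0.19, edgeR adjusted p = 0.000545) alone and 0.63 (SE 0.19, adjusted p = 0.0152) in co-culture, the latter lost without replicate 3 of the co-cultured control (0.45, adjusted p = 0.0900) or of the co-cultured knockout (0.40, adjusted p = 0.0599). Near-identical copies of both genes exist in the genome, so their counts may be split with those.

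ULK1, the kinase that starts autophagy, WIPI1, which reads the lipid mark on forming autophagosomes, and BECN1, part of the lipid kinase complex that makes that mark, were also called higher in both settings. Their log2 fold changes alone were 0.79 (SE 0.18, edgeR adjusted p = 0.00233), 0.66 (SE 0.13, adjusted p = 0.00102) and 0.67 (SE 0.15, adjusted p = 0.00166). With GC offsets and the replicate block BECN1 fell short of the call, at 0.26 (adjusted p = 0.0753). WIPI1 shares 28.1% and BECN1 17.1% of its exon bases with other genes. ATG5 and ATG7, which belong to the conjugation machinery for LC3, were not called, with log2 fold changes of 0.49 (SE 0.36, adjusted p = 0.265) and -0.13 (SE 0.14, adjusted p = 0.432) alone.

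Between the co-cultured groups, 27 of the 43 were called higher and 3 lower (69.8%), against 49.4% of all genes, 24.1% higher and 25.3% lower. The co-cultured groups did not overlap for 29 members with the knockout higher and 3 with it lower, against 26.9% and 28.5% of all genes. The median log2 fold change was 0.67 over the 43 and -0.02 over all genes. The lone and co-cultured comparisons use different libraries, but come from the same fit and both cross the difference of the cells at the deleted locus. In both, 22 genes were called higher and 3 lower (LAMP1, MCOLN1 and TFEB), and no gene was called in opposite directions. The share of all genes called in both is not given here, so these counts have no background. GAA, GUSB, ASAH1 and ATP6V1A were called alone only. GLB1, NEU1, NAGLU, CTSB and CTSZ were called in co-culture only, and 9 genes in neither. The NAGLU call was lost without replicate 1 of the co-cultured control, at 0.61, or replicate 1 or 2 of the co-cultured knockout, at 0.68 and 0.61. With GC offsets NAGLU and CTSZ were also called higher alone. Whether any of these differed between the settings is the interaction test, given below.

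**Figure D3:**
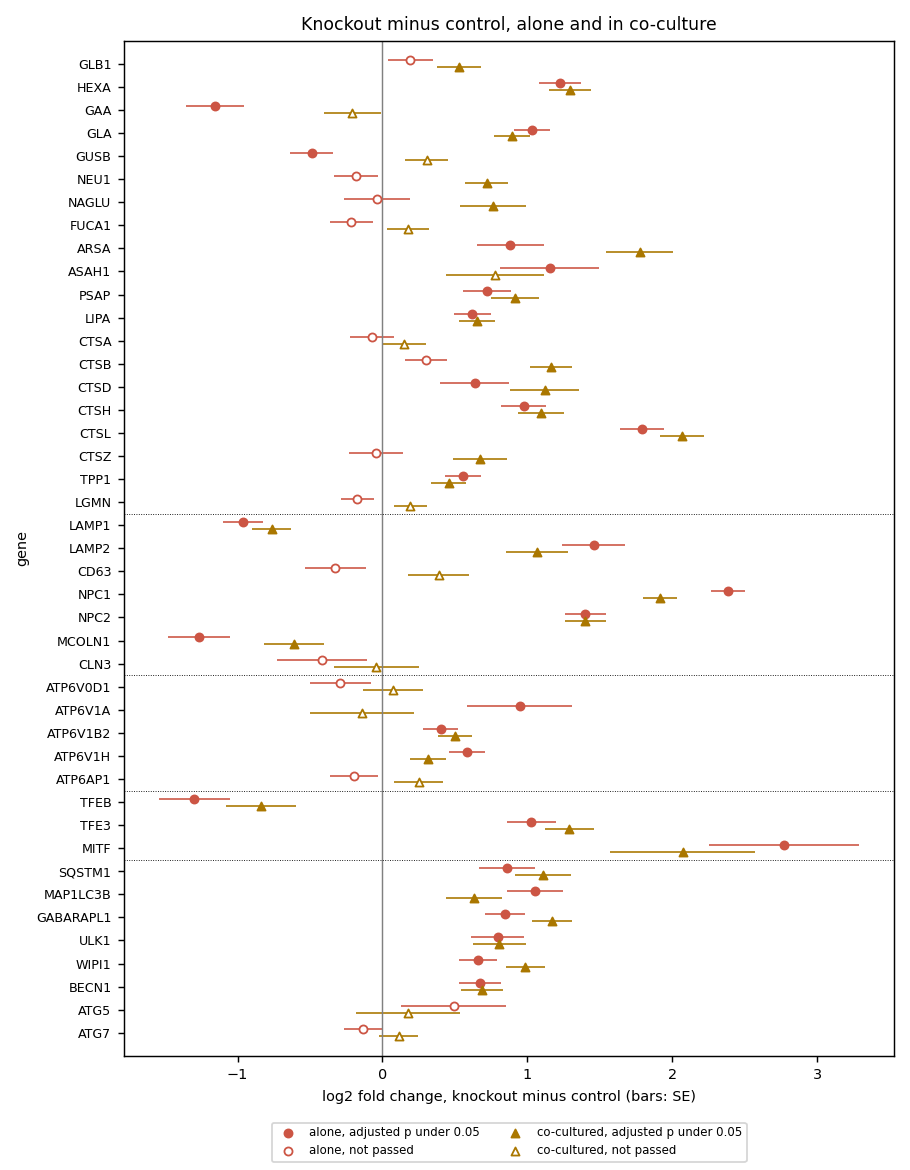
Points give each gene's log2 fold change of knockout against control, alone and in co-culture, with bars of 1 SE, and filled points passed an adjusted p under 0.05. NPC1 lies at 2.39 alone and 1.91 in co-culture, TFEB at -1.30 and -0.84, and most autophagy genes right of 0 in both.

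Few of these genes were called on co-culture of the knockout cells. GUSB, NEU1, CTSB and GABARAPL1 were called higher and none lower, so 4 of 43 (9.3%) were called, against 11.4% of all genes (5.97% higher, 5.4% lower). The knockout groups did not overlap for 15 members with co-culture higher and 2 with it lower, against 16.7% and 14.9% of all genes. The median log2 fold change was 0.26 over the 43 and 0.01 over all genes. The 43 genes took 1.26% ± 0.0596 of all counts (SD, n = 3) in the co-cultured knockout, against 1.03% ± 0.00681 in the lone knockout, and the groups did not overlap. The count depends on the fit and on replicate 3 of the co-cultured knockout. More members were called with DESeq2, without the filter on low counts and with GC offsets, with counts given below. Without replicate 3 of the co-cultured knockout 19 members were called, 15 higher and 4 lower, while 5680 of all genes were called in place of 1907. Without any other of the 6 knockout libraries 2 members were called, NEU1 and CTSB, and the all-gene counts of those fits are not given here.

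NEU1, the sialidase that trims sialic acids and travels with CTSA, stood at 46.4, 49.8 and 54.3 CPM in the lone knockout and at 104, 109 and 80.8 CPM in the co-cultured knockout. The lone control held 47.3, 60.9 and 62.6 CPM and the co-cultured control 59.9, 56.4 and 62.3 CPM. Every co-cultured knockout library was above all 9 others. The log2 fold change of co-cultured against lone knockout was 0.97 (SE 0.15, edgeR adjusted p = 0.00184), and 1.09 (adjusted p = 0.000193) without replicate 3. Knockout against control was -0.18 (SE 0.15, adjusted p = 0.312) alone and 0.72 (SE 0.15, adjusted p = 0.00143) in co-culture.

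CTSB, the cysteine protease cathepsin B, stood at 684, 741 and 756 CPM in the lone knockout and at 1251, 1483 and 1132 CPM in the co-cultured knockout. It stood at 518, 606 and 645 CPM in the lone control and at 595, 533 and 599 CPM in the co-cultured control. The co-cultured knockout again lay above all other libraries. Its log2 fold change on co-culture was 0.83 (SE 0.15, edgeR adjusted p = 0.0040), and 0.91 (adjusted p = 0.000768) without replicate 3. GUSB went from 45.7, 48.1 and 51.7 CPM in the lone knockout to 79.2, 79.6 and 61.8 CPM in the co-cultured knockout, a log2 fold change of 0.60 (SE 0.15, adjusted p = 0.0256). GABARAPL1, with values above, had 0.57 (SE 0.14, adjusted p = 0.0211). Both of these calls were lost without any 1 of the lone knockout libraries or without replicate 1 or 2 of the co-cultured knockout, with values of 0.53 to 0.64 for GUSB and of 0.50 to 0.63 for GABARAPL1. Both were also lost with only the compared groups, and that of GABARAPL1 with library size only.

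The members that did not pass were CTSL at 0.46 (SE 0.15, edgeR adjusted p = 0.0594), CD63 at 0.66 (SE 0.21, adjusted p = 0.0603), GAA at 0.54 (SE 0.20, adjusted p = 0.089), ATP6V1B2 at 0.33 (SE 0.12, adjusted p = 0.0896) and others nearer to 0. NPC1 stood at -0.30 (SE 0.11, adjusted p = 0.0986), with the 3 co-cultured libraries below the 3 lone ones. TFE3 stood at 0.28 (SE 0.17, adjusted p = 0.273), TFEB at 0.09 (SE 0.24, adjusted p = 0.83) and MITF at -0.51 (SE 0.47, adjusted p = 0.488). Without replicate 3 of the co-cultured knockout the 4 members called lower were ATP6V1A at -1.53, MITF at -1.17, ASAH1 at -0.98 and LAMP2 at -0.58. ATP6V1A stood at 54.1, 41.9 and 39.7 CPM in the lone knockout and at 17.5, 13.9 and 39.9 CPM in the co-cultured knockout, so replicate 3 was at the level of the lone libraries. The members' log2 fold changes in this comparison followed transcript GC content, with a Spearman correlation of 0.447 over 43 genes, and 0.435 over all genes. The genes share libraries, so this is a description, and the part of GC content in the differences was not tested beyond the GC offsets.

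**Figure D4:**
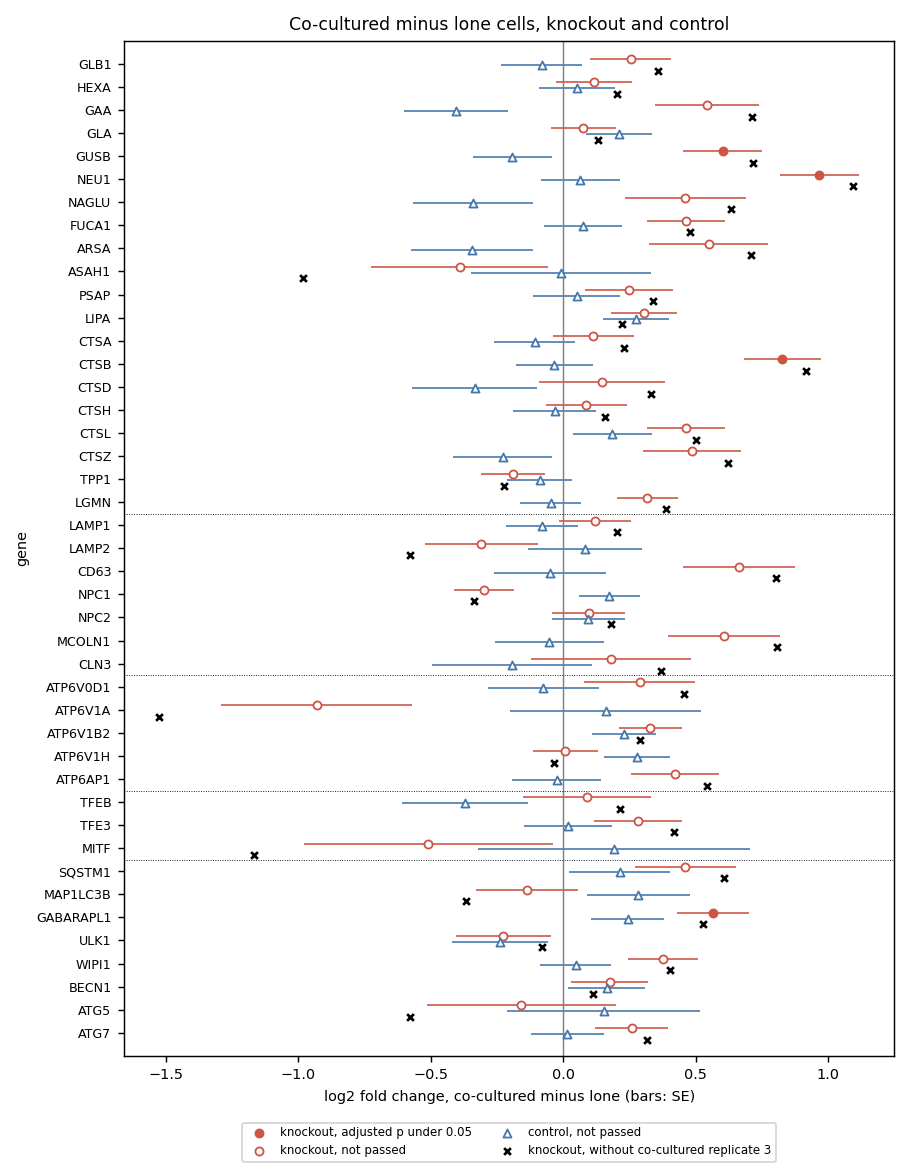
Points give each gene's log2 fold change of co-cultured against lone cells, for control and knockout cells, with bars of 1 SE, and crosses give the knockout value without replicate 3 of the co-cultured knockout. NEU1 at 0.97 and CTSB at 0.83 are the farthest right of the genes called, control points lie between -0.40 and 0.28, and the crosses of ATP6V1A and MITF lie left of their points.

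Growth genes also changed on co-culture of the knockout. MKI67 fell from 141 to 162 CPM in the lone knockout to 33.3 to 59.3 CPM, which is -1.78 on the log2 scale (SE 0.23, edgeR adjusted p = 0.000484). CDKN1A rose to 1916 to 2946 CPM, by 1.16 (SE 0.20, adjusted p = 0.00366), and LMNB1 fell by 1.07 on the log2 scale (SE 0.16, adjusted p = 0.00152). The series text gives restored growth for this group, while MKI67 RNA was lower in it than in the lone knockout. The part of these genes in the lysosomal values was not tested.

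In control cells, none of the 43 was called on co-culture. The count was 0 with edgeR and 0 with DESeq2, 2 of the 43 had an unadjusted p under 0.05, and of all genes 0% were called and 3.22% had such a p. The median log2 fold change of the 43 was 0.02. The control groups did not overlap for 4 members, all 4 higher in co-culture, where 4.48% of all genes did so upward and 2.9% downward. The interaction asks whether co-culture shifted knockout and control cells by unequal amounts. It was also called for 0 members with edgeR, against 1.8% of all genes (1.51% higher, 0.286% lower). It had an unadjusted p under 0.05 for 11 of the 43, against 18.7% of all genes. DESeq2 called 4 members, and 872 of all genes. NEU1 stood at 0.90 (SE 0.21, edgeR adjusted p = 0.0517) and CTSB at 0.86 (SE 0.21, adjusted p = 0.0544). Without replicate 3 of the co-cultured knockout 11 members were called, among them NEU1 at 1.03 (adjusted p = 0.00535) and CTSB at 0.95 (adjusted p = 0.00909), and without replicate 1 of the lone control 2 were called. With GC offsets 6 members were called, with library size only 4 and without the filter on low counts 7. The all-gene counts of these settings and of the fits without a library are not given here, so these member counts have no background. The members' interaction values followed GC content with a Spearman correlation of 0.701 over 43 genes, and of 0.533 over all genes. Their co-culture differences in control cells had one of -0.732 over 43 genes, and of -0.371 over all genes.

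The 6 wider lists of the same machinery, with no gene in the 43, gave the following counts in the lone knockout. Of 38 other hydrolases and cofactors, 17 were called higher and 10 lower. Of 25 other membrane proteins, 9 were called higher and 4 lower. Of 18 other pump subunits tested, 8 were called higher and 3 lower. Of 38 other autophagy genes 15 were called higher and 8 lower, and of 18 genes of mTORC1 control at the lysosome 6 higher and 4 lower. Of 9 genes that sort enzymes by mannose 6-phosphate, 2 were called higher and 5 lower. Against 28% of all genes called higher and 28.6% lower, these lists moved both ways.

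IDS, the iduronate sulfatase, rose from 17.5, 17.7 and 15.8 CPM in the lone control to 54.8, 53.1 and 62.1 CPM in the lone knockout, by 1.74 on the log2 scale (SE 0.14, edgeR adjusted p = 4.09e-07). HYAL2, a hyaluronidase, fell from 113, 174 and 189 CPM to 28.7, 31 and 37 CPM (-2.30, SE 0.22, adjusted p = 2.45e-06). In the pump, ATP6V0E1 rose by 1.30 (SE 0.13, adjusted p = 3.58e-06) and ATP6V1D rose 6.52-fold (SE 0.40 on the log2 scale, adjusted p = 0.000104), while ATP6V0B fell by 1.56 on the log2 scale (SE 0.25, adjusted p = 0.000198). OPTN, another autophagy receptor, rose by 1.58 (SE 0.18, adjusted p = 9.25e-06), and VAMP8, a fusion protein of autophagosomes and lysosomes, fell by 1.64 on the log2 scale (SE 0.21, adjusted p = 2.56e-05). RRAGA, a GTPase that places mTORC1 on the lysosome, rose by 1.25 (SE 0.13, adjusted p = 5.44e-06), and FNIP2, a partner of the TFEB regulator FLCN, by 2.09 (SE 0.47, adjusted p = 0.00211). GGA1 and GGA2, adaptors for enzyme sorting, fell by 1.11 (SE 0.16, adjusted p = 8.3e-05) and by 0.61 on the log2 scale (SE 0.12, adjusted p = 0.000767). ABCB9, a peptide transporter, stood at -1.20 (SE 0.21, adjusted p = 0.000294) and SLC29A3, a lysosomal nucleoside transporter, at 0.83 (SE 0.15, adjusted p = 0.000491).

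In co-culture of the knockout the same lists gave 8 higher and 1 lower among the 38 other hydrolases, 5 and 0 among the 25 membrane proteins and 0 among the 18 pump subunits. They gave 1 and 1 among the 38 autophagy genes, 2 and 0 of 18 in mTORC1 control and 1 and 0 of 9 in enzyme sorting. Of all genes 5.97% were called higher and 5.4% lower. The endolysosomal proteases CTSC and CTSS led. CTSC went from 50.5, 47.6 and 45 CPM to 109.7, 109.7 and 120.1 CPM, and CTSS from 31.7, 23.9 and 19 CPM to 96.1, 87.1 and 129 CPM, with no overlap. Their log2 fold changes were 1.25 (SE 0.13, edgeR adjusted p = 0.00011) and 2.06 (SE 0.26, adjusted p = 0.000469). CD68, a glycoprotein of the LAMP family known from macrophages, stood at 0.931, 0.896 and 0.852 CPM in the lone knockout and at 2.8, 3.58 and 2.57 CPM in the co-cultured knockout (1.73, SE 0.33, adjusted p = 0.00637). Of the 5 macrophage markers CD14 also rose in this comparison, by 1.91 (SE 0.35, adjusted p = 0.00563), from 0.866 ± 0.0613 to 3.25 ± 0.851 CPM (SD, n = 3), and PTPRC, CSF1R, MRC1 and AIF1 were below 1 CPM in every library. The part of macrophage RNA in these values was not tested. FLCN rose from 32.6, 35.5 and 34.1 CPM to 67.3, 69.4 and 50.9 CPM (0.88, SE 0.15, adjusted p = 0.00401). TPCN1, a channel of the endolysosomal membrane, was 0.71 higher on the log2 scale (SE 0.15, adjusted p = 0.0108), lost without replicate 1 of the lone knockout.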

How the data were processed

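RNA was measured in 12 libraries. The authors deposited a table of raw counts per Ensembl gene, and the submitters' processing notes name FastQC, STAR 2.7.9a, featureCounts, R 4.2.1, DESeq2 1.36.0 and the build GRCh38 (hg38). The annotation release, the strand setting and filters are not given in the sources used here. Per the labels, miRNeasy was used for RNA and NEBNext Ultra for the libraries.

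No deposited count was altered. Symbols, positions, exon lengths and GC content came from GENCODE 29 (58366 of 61541 identifiers found), promoters from RefSeq. In R 4.3.3 with edgeR 4.0.16, filterByExpr left 16768 genes, libraries were scaled by TMM, and the 12 libraries were fitted with 4 group means (8 residual degrees of freedom). The quasi-likelihood F-test was robust, and p-values were adjusted by Benjamini-Hochberg over all genes within each of 5 comparisons, with calls at 0.05. CPM and RPKM are TMM-scaled. The biological coefficient of variation was 22.1%. The SEs come from the quasi-likelihood F-test and the SDs from the libraries of a group, so both include the spread between libraries. The fit was tested on simulated data. Replicate pairs differed by 7.96 to 117 in chi-square per gene, where counting noise gives about 1, so no library was counted as a repeat.

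Alternatives were size factors by ratios (RLE), library size only, no filter, DESeq2 1.42.0, only the compared groups, offsets for GC content, the replicate number as a block, and each library left out. Replicate numbers were taken from the labels.

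The members, the lists and the tests were chosen with earlier results of these data known. Library values are given for GLB1, SQSTM1 and the TFEB family, and in each role for the 2 members with the smallest p in knockout against control alone and the member with the smallest p in co-culture of the knockout. LAMP1, LAMP2, MCOLN1, GAA, CTSB, GUSB, ATP6V1A and PSAP were added after their values were seen. From each wider list the 2 genes with the smallest p in each of these comparisons are named.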

Additional observations from a re-analysis of the deposited data

Results flagged for a closer look

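The co-culture difference in knockout cells differed from that in control cells, by the interaction test of edgeR, for 8 genes of the lists run beside the members and for none of the 43 members. With 3 libraries in a group, no search for single outlying libraries was made.

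Among the lysosomal hydrolases and cofactors, CTSC, a protease that activates other proteases, had an interaction of 1.01 (log2, adjusted p = 0.0140), with 56.3 ± 4.18 CPM (SD, n = 3) in the lone control, 66.4 ± 9.46 in the co-cultured control, 47.7 ± 2.75 in the lone knockout. The co-cultured knockout libraries held 109.7, 109.7 and 120.1 CPM. CTSS, a protease of antigen processing, had 1.78 (adjusted p = 0.0318), with 7.48 ± 2.11, 9.01 ± 2.49, 24.9 ± 6.41 and 104 ± 21.8 CPM in the same order of groups. GM2A, the cofactor of beta-hexosaminidase whose subunit HEXA is among the members, had 0.82 (adjusted p = 0.0354), with 54.8 ± 3.51, 58.8 ± 7.57, 81.5 ± 1.97 and 154 ± 11.3 CPM. GM2A was named because of this test and not by the naming rule. Without replicate 3 of the co-cultured knockout these 3 values were 0.97 (adjusted p = 0.00639), 1.60 (adjusted p = 0.00808) and 0.86 (adjusted p = 0.00898). Of 19 alternatives, 15 kept the CTSC call, 9 the CTSS call and 8 the GM2A call, and adjusted p ran up to 0.0637, 0.106 and 0.126.

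Of the genes read for growth state, the interaction was 1.26 (adjusted p = 0.0402) for CDKN1A, -1.01 (adjusted p = 0.0406) for LMNB1 and -1.41 (adjusted p = 0.0419) for MKI67. The calls were kept in 8, 7 and 7 of 19 alternatives, with adjusted p up to 0.130, 0.123 and 0.143, and no value changed sign. TYMS had -0.89 (adjusted p = 0.0107), kept in 18 of 19 alternatives. CD14, a monocyte receptor, had 2.75 (adjusted p = 0.0111), kept in 19 of 19 alternatives, at 4.76 ± 1.20, 2.63 ± 1.18, 0.866 ± 0.0613 and 3.25 ± 0.851 CPM in the same order of groups.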

How the results depend on the processing

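Of the 29 members called between lone knockout and lone control, 21 kept call and direction in all 14 alternatives. The number called was 26 to 31 over these alternatives, and 26 to 28 with a library left out. Of the 30 called in co-culture 25 were kept, and 27 to 29 were called with a library left out. With DESeq2 9835 of all genes were called alone and 8599 in co-culture. The all-gene counts of the other alternatives are not given here, so these ranges have no background. Of the 4 called between co-cultured and lone knockout 2 were kept (NEU1, CTSB). The number called there was 7 with library size only, 14 without the filter, 17 with GC offsets, 14 with GC offsets and the block, 2 with only the compared groups and 13 with DESeq2, and 2 to 19 with a library left out. All genes called there numbered 1907, 3239 with DESeq2, and 536 to 5680 over the alternatives. With GC offsets 14.5% of the 11629 genes with a promoter window but no TCACGTGA were called higher there and 16.4% lower. The all-gene counts of the other settings there are not given here, so their member counts have no background. Members with a called interaction numbered 0, and 4 with library size only, 7 without the filter, 6 with GC offsets, 3 with GC offsets and the block, 4 with DESeq2 and 0 to 11 with a library left out. Of all genes 301 had a called interaction in the TMM-scaled edgeR fit and 872 with DESeq2. All-gene counts of the other settings are not given here. Co-culture of the control gave 0 in every alternative run. The interaction was not run with only the compared groups, since it uses all groups. The cause of these shifts was not tested.

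The sign changed in at least 1 alternative for 9 of 43 members alone (NAGLU, CTSA, CTSZ, CLN3, ATP6V0D1, ATP6V1B2, ATP6AP1, ATG5, ATG7), for 10 on co-culture of the knockout (ASAH1, CTSA, CTSD, CTSH, LAMP2, CLN3, ATP6V1H, TFEB, MAP1LC3B, ATG5) and for 6 between the co-cultured groups (GAA, CTSA, CLN3, ATP6V0D1, ATP6V1A, ATG5). GC offsets turned 8, 8 and 2 of these, and ATP6V1B2 was the only one of them called in the TMM-scaled edgeR fit. Among them, ATP6V1B2 alone was -0.20 with GC offsets and -0.19 with the block added. On co-culture of the knockout, TFEB was -0.14 and -0.15 in these 2 fits and -0.085 to 0.212 with a library left out (negative without replicate 2 of the co-cultured knockout), and LAMP2 was 0.27 and 0.25. ATP6V1H was -0.047 with library size only, -0.0015 with only the compared groups, and -0.064 to 0.045 with a library left out (negative without replicate 2 of the lone or replicate 3 of the co-cultured knockout). MAP1LC3B was -0.368 to 0.0054 with a library left out (positive without replicate 2 of the co-cultured knockout). Library size only shifted the all-gene median (log2) by 0.157 alone and by -0.121 in the interaction.

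Deviations of same-numbered libraries from their group means correlated at -0.603 to 0.491, 7 of 18 over 0.1. Replicates 1 and 3 deviated together between lone control and lone knockout (0.491 and 0.378). They also did so between lone and co-cultured control (0.189 and 0.412) and between co-cultured control and lone knockout (0.196 and 0.308). Replicate 2 did not in these pairs (-0.073 to -0.024). Replicates 1 and 3 of the co-cultured knockout ran against the other groups (-0.603 to -0.17). Whether the numbers mark shared batches is not in the labels. With the replicate block 28, 4 and 29 members were called in the 3 comparisons with knockout cells, 0 on co-culture of the control and 0 in the interaction. The all-gene counts with the block are not given here, so these counts have no background.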

Other observations

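A few lysosome genes outside the 43 moved with co-culture of the knockout and are given as values. EPG5, a tether for the fusion of autophagosomes with lysosomes, stood at 10.2, 10.1 and 5.85 CPM in the lone control, at 29.97, 25.7 and 21.4 CPM in the lone knockout and at 7.72, 6.5 and 16.5 CPM in the co-cultured knockout. It was called higher alone (1.56 on the log2 scale, SE 0.37, edgeR adjusted p = 0.00289) and lower on co-culture (-1.33, SE 0.36, adjusted p = 0.0344). The second call was kept in 6 of 14 alternatives. It was lost without any 1 of the lone knockout libraries or without replicate 1 or 2 of the co-cultured knockout. It was also lost with library size only, with the replicate block and with only the compared groups. The value was -1.86 (edgeR adjusted p = 0.000572) without replicate 3 of the co-cultured knockout.

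ATG16L2, a relative of the autophagy scaffold ATG16L1, stood at 4.49, 4.73 and 6.27 CPM in the lone knockout and at 11.3, 10.2 and 10.9 CPM in the co-cultured knockout. The latter was higher by 1.07 on the log2 scale (SE 0.23, edgeR adjusted p = 0.0136), a call lost without replicate 1 or 2 of the lone or replicate 1 of the co-cultured knockout. M6PR, a receptor that carries hydrolases to the lysosome, was 0.41 higher on co-culture (SE 0.12, adjusted p = 0.0402), and LAMTOR5, part of the scaffold for mTORC1 on the lysosome, 0.45 higher (SE 0.13, adjusted p = 0.0478). The M6PR call was kept in 6 of 14 alternatives and the LAMTOR5 call in 5. GNPTAB, which makes the mannose 6-phosphate tag, stood at -1.35 (SE 0.43, adjusted p = 0.0623) on co-culture. IDS, higher in the lone knockout, was lower on co-culture by a log2 fold change of -0.58 (SE 0.13, adjusted p = 0.0175), kept in 6 of 14.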
